A study of Mus musculus with 6 samples.

Results

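The MYC and MAX network is a family of transcription factors with basic helix-loop-helix leucine zipper domains, and 9 of its genes were followed here: Myc, Max, Mxd1, Mxd3, Mxd4, Mxi1, Mnt, Mlx and Mlxip. They were taken by gene symbol from a table of 54532 genes, and each symbol matched 1 row. The RNA came from mouse peritoneal macrophages that thioglycollate had drawn into the cavity, stimulated for 8 h with 2 ng/mL interferon-γ plus 10 ng/mL lipopolysaccharide. The tested cells, 3 libraries, are titled SAHH-KO and carry the genotype SAHH knockdown. The 3 control libraries are titled shControl and carry the genotype WT. SAHH is S-adenosylhomocysteine hydrolase, the product of Ahcy, an enzyme that clears the by-product of methylation reactions. Every library of both groups was stimulated, and how the knockdown was delivered, the strain, sex and age of the mice and the source of the replicates are not given in the sources used here. The p-values therefore measure the spread between these libraries, which may be technical.

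As background, MAX is the shared partner of the network. MYC binds DNA only when paired with MAX, and the pair activates genes of growth, ribosome production and metabolism at the E-box CACGTG. The MXD proteins, MXI1 (also called MXD2) and MNT compete for MAX and bring SIN3 and histone deacetylases to the same sites, where they repress. MLX is a second partner protein, which pairs with MXD1, MXD4, MNT and the glucose-sensing Mondo proteins, of which MLXIP (MondoA) is one. In macrophages MYC is known for its part in growth responses, and MXD1 is known to accompany terminal differentiation of myeloid cells.

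The start sites of the members show where the network's own binding word occurs in its genes. RefSeq windows on GRCm38.p6, from 250 bases before to 50 after a start, were matched for 8 of the 9 members, Myc being the one without an entry, and gave 10 windows. The E-box, which reads CACGTG on both strands, was found in the windows of 4 members, Max, Mxd4, Mnt and Mlx, and in 7.15% of all 32851 windows. Its first base lay at position -3 from the start in Max, -40 in Mlx, -123 in Mnt and -219 in Mxd4. The 60 bases around each are shown 5′ to 3′ with the E-box in capitals, since these members carry the network's site.
Max at chr12:76962219-76962278, minus strand: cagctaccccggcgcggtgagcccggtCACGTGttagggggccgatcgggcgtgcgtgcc
Mlx at chr11:101087223-101087282, plus strand: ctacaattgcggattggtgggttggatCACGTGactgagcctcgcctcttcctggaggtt
Mnt at chr11:74830774-74830833, plus strand: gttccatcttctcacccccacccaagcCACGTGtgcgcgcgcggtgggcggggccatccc
Mxd4 at chr5:34187897-34187956, minus strand: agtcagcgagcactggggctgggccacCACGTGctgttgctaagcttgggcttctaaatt

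Mxd1 and Mxi1 had no CACGTG in their windows, and they are shown because they were the members called in the test with the filter on low values. Mxd3, which that filter left out, also had no CACGTG in its window. The capitals mark the GC box GGGCGG, counted on both strands and with overlapping matches, which occurred 6 times in the Mxd1 window, 8 times in that of Mxd3 and in 35.7% of all windows at least once. Mxi1 has 3 annotated starts. The GC box occurred 1 time in the window of the first start, 4 times in that of the middle one, which is not printed, and 4 times in that of the last. It also occurred 4 times in the window of Mnt, a member not called. The gene-level values cannot tell the starts of Mxi1 apart.
Mxd1 at chr6:86669110-86669409, minus strand: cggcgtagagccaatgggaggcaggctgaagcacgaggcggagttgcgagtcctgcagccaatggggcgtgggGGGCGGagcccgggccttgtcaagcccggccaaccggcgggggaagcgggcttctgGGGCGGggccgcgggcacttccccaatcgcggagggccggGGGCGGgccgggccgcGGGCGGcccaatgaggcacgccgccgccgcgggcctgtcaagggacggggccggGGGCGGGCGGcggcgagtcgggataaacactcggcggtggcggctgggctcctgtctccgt
Mxi1, first start, at chr19:53310256-53310555, plus strand: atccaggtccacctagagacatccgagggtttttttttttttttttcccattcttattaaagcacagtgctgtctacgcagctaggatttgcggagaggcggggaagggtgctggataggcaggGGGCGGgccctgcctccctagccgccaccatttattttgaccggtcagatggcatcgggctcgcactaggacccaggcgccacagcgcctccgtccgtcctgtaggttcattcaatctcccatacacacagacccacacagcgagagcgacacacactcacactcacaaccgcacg
Mxi1, last start, at chr19:53329445-53329744, plus strand: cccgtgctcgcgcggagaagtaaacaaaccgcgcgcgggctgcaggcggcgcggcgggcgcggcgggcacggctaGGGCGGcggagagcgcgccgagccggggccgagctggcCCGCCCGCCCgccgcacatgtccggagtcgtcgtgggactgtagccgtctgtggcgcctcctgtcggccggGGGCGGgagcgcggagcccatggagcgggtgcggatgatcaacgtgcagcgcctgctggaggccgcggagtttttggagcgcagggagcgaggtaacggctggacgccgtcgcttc
The STAT-type word TTCNNNGAA, searched on both strands, was in 8.30% of all windows and in 0 of the members' windows. These matches describe letters in a window and are not evidence of binding.

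The libraries held 15856261 to 17748745 reads assigned to genes in SAHH-KO and 15540442 to 16676534 in control, worked out from the deposited FPKM (fragments scaled by gene length and library size). Ahcy itself read 5.75 ± 0.419 FPKM in SAHH-KO and 24.3 ± 1.59 FPKM in control (SD, n = 3 each), although 68.7% of its 50-base words also occur in other genes, mostly Gm4737. Across 10362 genes with at least 1 FPKM in at least 3 libraries, 53.3% passed limma's test at an adjusted p under 0.05, with 2736 higher and 2782 lower in SAHH-KO. Rescaling to TPM, which fixes one total for every library, turned that split into 2006 higher and 3894 lower, and scaling by assigned reads into 2033 and 3905. These scalings moved the median log2 fold change of all genes by -0.15 and -0.14. Markers of macrophages were present and were higher in SAHH-KO for 5 of 8 tested and lower for 0 (62.5% and 0%, beside 26.4% and 26.8% of all genes). The higher ones were led by Fcgr1 (4.79-fold), Adgre1 (2.09-fold), Spi1 (1.54-fold) and Itgam (1.43-fold). Csf1r, the receptor of macrophage growth factor and named after its values were seen, leaned the other way, at 91.0 ± 6.62 FPKM in SAHH-KO and 107 ± 8.07 FPKM in control (log2 fold change -0.23, limma adjusted p = 0.0568). Csf1r was called lower with TPM scaling (adjusted p = 0.00591), with assigned-read scaling (0.00480), in limma voom (0.0462), with the replicate block (0.0414) and without SAHH-KO replicate 1 (0.0433). The summed level of the macrophage markers was 9568 to 10850 FPKM in SAHH-KO and 8529 to 8818 FPKM in control. Most of it was Lyz2, at 6616 ± 708 FPKM in SAHH-KO and 5653 ± 144 FPKM in control. Lyz2 was not called (limma adjusted p = 0.0670), except in limma voom (0.0494), and Cd68 was not called (limma adjusted p = 0.677). Both were named after their values were seen. Mertk, an engulfment receptor of the same list, named after its values were seen, was near 0, with 1 read in 1 library of each group. Of 33 markers of T cells, B cells, neutrophils, mast cells, eosinophils, fibroblasts and mesothelial cells, 32 stayed below 1 FPKM in each library and 16 were at 0 throughout. The exception, Lck, was at 4.13 ± 0.917 FPKM in SAHH-KO and 2.38 ± 0.126 FPKM in control, while Cd3d and Cd3g were at 0. The part of these marker differences in the results below was not tested.

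Of the 9 members, 7 passed the filter on low values and 2, Mxd3 and Mxd4, did not. Among the 7, Mxd1 was higher and Mxi1 was lower in SAHH-KO, and 5 were not called. That is 28.6% of the tested members, against a background of 53.3% of all genes called in either direction (26.4% higher and 26.8% lower). The members' share was not above that background, and their median log2 fold change was 0.07, beside -0.01 over all genes. Log2 fold changes are SAHH-KO over control on the log2(FPKM + 1) scale, which understates changes of low genes. In bulk RNA, fewer cells with a transcript and less transcript per cell cannot be told apart.

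**Figure D1:**
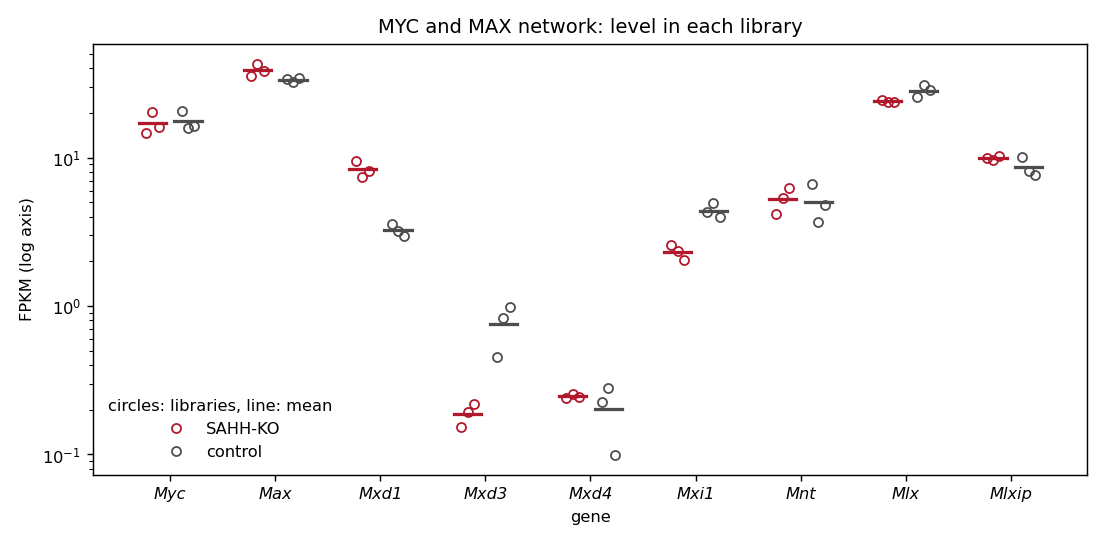
FPKM of the 9 members in each library, on a log axis; circles are libraries, lines are means of 3, red is SAHH-KO and grey is control. Mxd1 stands higher in SAHH-KO and Mxi1 and Mxd3 stand lower, with no overlap between the groups, while the circles of Myc and Mnt interleave. Max (higher) and Mlx (lower), which were not called, also do not overlap between the groups.

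Myc (ENSMUSG00000022346; chromosome 15 of GRCm38, bases 61985391 to 61990374, plus strand, 3 exons in its longest coding transcript) encodes the activator of the network. It read 14.7, 20.3 and 16.0 FPKM in the SAHH-KO libraries and 20.7, 15.8 and 16.4 FPKM in the control libraries. The groups overlapped across nearly their whole range, and in each group 1 library stood above the other pair. The means were 17.0 ± 2.93 FPKM in SAHH-KO and 17.6 ± 2.69 FPKM in control (SD, n = 3 each). The log2 fold change was -0.05 (SE 0.140, 95% interval -0.37 to 0.27, limma adjusted p = 0.781), so a rise or fall within that interval remains compatible with these values. Its sign turned to 0.042 without SAHH-KO replicate 1 and to 0.064 without control replicate 1. With TPM scaling it was -0.21 (adjusted p = 0.274) and with assigned-read scaling -0.20 (adjusted p = 0.261), and it was -0.18 (adjusted p = 0.304) without SAHH-KO replicate 2.

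Max (ENSMUSG00000059436; chromosome 12, bases 76937269 to 76962201, minus strand, 5 exons) encodes the partner that MYC and the repressors share, and it had the highest level of the 9. It read 35.4, 43.0 and 38.0 FPKM in SAHH-KO and 33.7, 32.4 and 34.2 FPKM in control. All SAHH-KO libraries lay above all control libraries, by a narrow margin. The means were 38.8 ± 3.85 FPKM in SAHH-KO and 33.4 ± 0.934 FPKM in control, and the log2 fold change of 0.20 (SE 0.0887, 95% interval 0.0012 to 0.41) missed the threshold (limma adjusted p = 0.0830). It was 0.047 with TPM scaling, 0.048 with assigned-read scaling and 0.13 without SAHH-KO replicate 2 (adjusted p = 0.281).

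Mxd1 (ENSMUSG00000001156; chromosome 6, bases 86647042 to 86669161, minus strand, 6 exons) encodes the founding MXD repressor, which replaces MYC on MAX as cells leave the cycle. Its levels were 9.53, 7.44 and 8.10 FPKM in SAHH-KO, against 3.55, 3.18 and 2.98 FPKM in control. Each SAHH-KO library was at least 7.44 FPKM and no control library passed 3.55 FPKM. The mean was 8.36 ± 1.07 FPKM in SAHH-KO and 3.24 ± 0.286 FPKM in control, a 2.58-fold rise (log2 fold change 1.14, SE 0.107, limma adjusted p = 5.86e-05). It rested on 801 to 1121 reads per SAHH-KO library and 369 to 420 per control library. Over all alternatives its log2 fold change stayed between 1.01 and 1.37, with adjusted p of at most 0.00121.

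Mxi1 (ENSMUSG00000025025; chromosome 19, bases 53310506 to 53375810, plus strand, 6 exons) encodes the MXD2 repressor and went the other way. It stood at 2.57, 2.35 and 2.04 FPKM in SAHH-KO, against 4.30, 4.92 and 3.96 FPKM in control. The highest SAHH-KO library was below the lowest control library. The mean fell to 2.32 ± 0.268 FPKM in SAHH-KO, against 4.39 ± 0.485 FPKM in control, which is 0.527 of the control mean (log2 fold change -0.70, SE 0.106, limma adjusted p = 0.000779). Alternatives gave -0.98 to -0.63, with adjusted p of at most 0.00687.

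Mxd3 (ENSMUSG00000021485; chromosome 13, bases 55325168 to 55329823, minus strand, 6 exons), a repressor known to be expressed in dividing cells, was among the lowest. It had 0.152, 0.194 and 0.219 FPKM in SAHH-KO, against 0.454, 0.824 and 0.992 FPKM in control, from 6, 7 and 8 reads and from 18, 32 and 42 reads. The SAHH-KO libraries all lay lower, at 0.249 of the control mean. Mxd3 did not reach the filter. In the fit without it the log2 fold change was -0.55 (limma adjusted p = 0.0246, where 23.3% of 22729 genes were called, 12.0% higher and 11.3% lower). On the recovered reads, with a filter of 10 reads in 3 libraries added after the data were seen, limma voom gave -1.88 (SE 0.426, adjusted p = 0.00211, where 53.6% of genes were called, 26.6% higher and 26.9% lower). Only the control libraries, where Mxd3 was higher, met that filter. The selection therefore favoured a call in this direction, and that p is not independent support. In the unfiltered fit the call was lost on leaving out any of the 3 SAHH-KO libraries or control replicate 2 or 3, with adjusted p between 0.0755 and 0.110, so with so few reads it is less firm than the 2 calls above.

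Mxd4 (ENSMUSG00000037235; chromosome 5, bases 34173883 to 34187720, minus strand, 6 exons), another MXD repressor, did not reach the filter either. It read 0.241, 0.256 and 0.245 FPKM in SAHH-KO and 0.225, 0.281 and 0.0989 FPKM in control, and the groups overlapped. Control replicate 3 stood apart from the other control libraries with 15 reads, where they had 32 and 39. Without the filter the log2 fold change was 0.06 (95% interval -0.10 to 0.21, limma adjusted p = 0.574).

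Mnt (ENSMUSG00000000282; chromosome 11, bases 74830920 to 74845725, plus strand, 6 exons) encodes the broadly expressed repressor of the network. It read 4.17, 5.38 and 6.19 FPKM in SAHH-KO and 6.61, 3.68 and 4.76 FPKM in control. It had a wide spread in both groups, with a coefficient of variation of 19.4% in SAHH-KO and 29.5% in control, and the groups overlapped. The log2 fold change was 0.07 (95% interval -0.36 to 0.50, limma adjusted p = 0.775), and its sign turned under TPM and assigned-read scaling.

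Mlx (ENSMUSG00000017801; chromosome 11, bases 101087277 to 101092207, plus strand, 8 exons), the partner protein of the Mondo branch, read 24.3, 23.8 and 23.8 FPKM in SAHH-KO and 25.5, 31.0 and 28.4 FPKM in control. The SAHH-KO libraries were nearly equal to one another and all lay below the control libraries. The means were 23.9 ± 0.282 FPKM in SAHH-KO and 28.3 ± 2.77 FPKM in control, and the log2 fold change of -0.23 (SE 0.0880) narrowly missed the threshold (limma adjusted p = 0.0572). It was called with TPM scaling (-0.39, adjusted p = 0.00534), with assigned-read scaling (-0.38, adjusted p = 0.00622) and without control replicate 1 (-0.30, adjusted p = 0.0105). Of its exon bases, 19.3% overlap Psmc3ip on the other strand, and no source read for this work says whether counting used the strand.

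Mlxip (ENSMUSG00000038342; chromosome 5, bases 123394798 to 123457932, plus strand, 17 exons), the glucose-sensing MondoA, read 9.86, 9.70 and 10.2 FPKM in SAHH-KO and 10.0, 8.18 and 7.62 FPKM in control. Control replicate 1 lay among the SAHH-KO libraries and the other control libraries below them. The log2 fold change was 0.19 (95% interval -0.05 to 0.43, limma adjusted p = 0.152), and the gene was called once control replicate 1 was left out (0.30, adjusted p = 0.0141). It was 0.050 with TPM scaling (adjusted p = 0.735) and 0.048 with assigned-read scaling (adjusted p = 0.710).

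**Figure D2:**
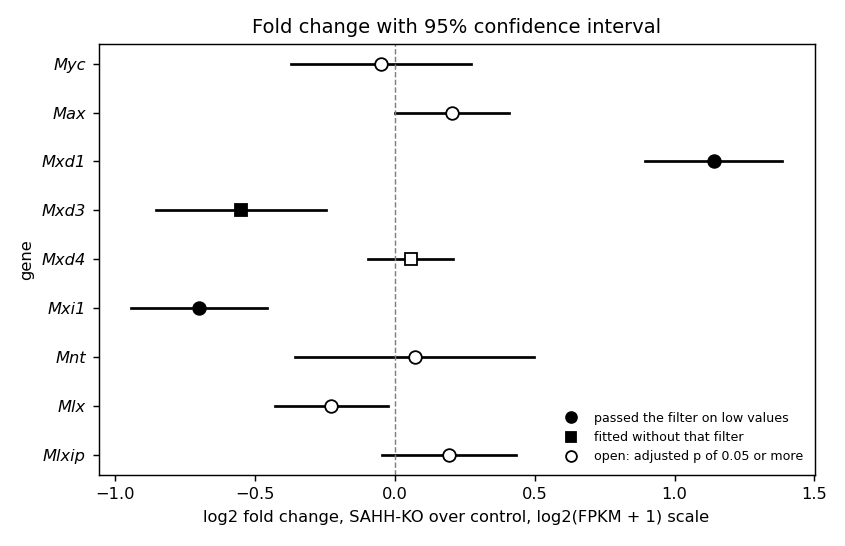
Log2 fold change of each member, SAHH-KO over control, on the log2(FPKM + 1) scale with its 95% interval (lines); filled symbols have an adjusted p under 0.05, and squares come from the fit without the filter on low values. Mxd1 at 1.14 is the filled symbol right of 0, and Mxi1 at -0.70 and Mxd3 at -0.55 are the filled ones left of it.

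FPKM is per gene length, so levels can be ranked between members. In SAHH-KO the order from high to low was Max, Mlx, Myc, Mlxip, Mxd1, Mnt, Mxi1, Mxd4 and Mxd3, and no neighbours overlapped over their 3 libraries. In control it was Max, Mlx, Myc, Mlxip, Mnt, Mxi1, Mxd1, Mxd3 and Mxd4, with Mnt and Mxi1 overlapping. Mxd1 was therefore the most abundant of the MXD, MXI1 and MNT repressor transcripts in SAHH-KO, at rank 5 of 9, and below Mnt and Mxi1 in control, at rank 7. The level of Mxi1 depends on its deposited length of 5619 bases, where GENCODE M21 holds 6823 exon bases.

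Ratios of genes within a library do not depend on how libraries are scaled. Of these, 9 were compared with an exact two-sided permutation test over the 20 ways to assign 3 of 6 libraries. Those that take in Mycn or Mga, which are no members, were not planned beforehand and are given further below. The smallest possible p of the test is 0.1. That is 0.15 after Benjamini-Hochberg adjustment over these 9, so none could pass the threshold. Mxd1 over Mxi1 was 3.71, 3.17 and 3.98 in the SAHH-KO libraries and 0.824, 0.647 and 0.753 in the control libraries. With the deposited lengths, Mxd1 exceeded Mxi1 in every SAHH-KO library and was below it in every control library, a 4.88-fold difference (exact permutation p = 0.1). The deposited length of Mxi1 is 5619 bases, where GENCODE M21 holds 6823 exon bases. Which of the 2 genes stands higher in a control library depends on that length, and the fold difference does not. In reads, control replicate 1 held 420 for Mxd1 and 405 for Mxi1. Myc over Mxd1 was 1.54, 2.73 and 1.98 in SAHH-KO, against 5.84, 4.96 and 5.50 in control (2.67-fold lower, exact permutation p = 0.1). Myc over Mxi1 was 5.73, 8.64 and 7.88 in SAHH-KO, against 4.82, 3.21 and 4.14 in control (1.83-fold higher, exact permutation p = 0.1). These ratios did not overlap between the groups. They are built from Mxd1 and Mxi1, called above, so they are no separate support for those calls.

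Against the sum of the 5 repressor transcripts, Myc stood at 0.883, 1.30 and 0.955 in SAHH-KO and 1.37, 1.23 and 1.28 in control. The groups overlapped (exact permutation p = 0.3), and SAHH-KO replicate 2 lay among the control libraries. The log2 difference, SAHH-KO minus control, was -0.32, and -0.49 without SAHH-KO replicate 2 (exact permutation p = 0.1). On reads not divided by gene length it was -0.47 (exact permutation p = 0.1). Max over the sum of Myc and those repressors was 1.13, 1.20 and 1.16 in SAHH-KO and 0.940, 1.13 and 1.17 in control (exact permutation p = 0.5), so the Max level was close to that of these partners together. Mlx over Mlxip was 2.46, 2.45 and 2.32 in SAHH-KO and 2.54, 3.79 and 3.72 in control (exact permutation p = 0.1), where control replicate 1 lay close to the SAHH-KO libraries. Myc over Mnt overlapped between the groups (exact permutation p = 0.6).

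**Figure D3:**
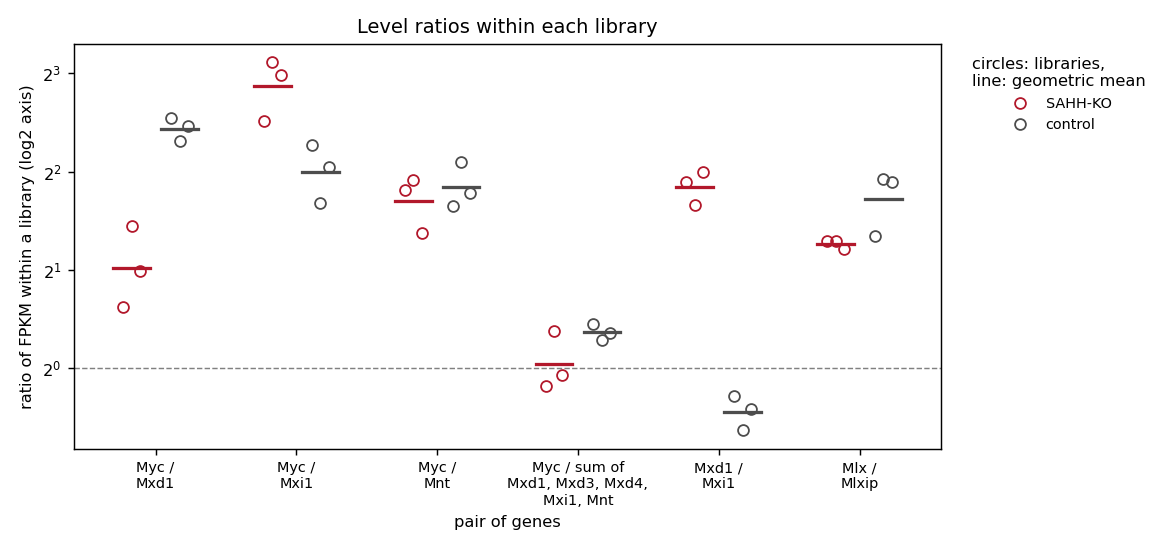
Ratio of FPKM between members within each library, on a log2 axis; circles are libraries, lines are geometric means of 3, red is SAHH-KO and grey is control. With the deposited gene lengths, Mxd1 over Mxi1 is above 1 in the 3 SAHH-KO libraries and below 1 in the 3 control libraries, and Myc over Mxd1 is lower in SAHH-KO.

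The paralogue Mycn, which pairs with MAX as Myc does and is best known from embryonic and neural tissue, was far above Myc in all libraries. It is no member and was singled out after its values were seen. Mycn read 92.7, 105 and 101 FPKM in SAHH-KO and 141, 104 and 126 FPKM in control. The groups met at the lowest control and the highest SAHH-KO library. The means were 99.5 ± 6.10 FPKM in SAHH-KO and 124 ± 18.2 FPKM in control, and the log2 fold change of -0.30 (SE 0.114) missed the threshold (limma adjusted p = 0.0517), and was called with TPM scaling (-0.47, adjusted p = 0.0116), with assigned-read scaling (adjusted p = 0.0102), in limma voom (adjusted p = 0.0299) and without control replicate 2 (-0.42, adjusted p = 0.00601). It exceeded Myc by 5.15-fold to 6.31-fold in SAHH-KO and 6.61-fold to 7.69-fold in control (exact permutation p = 0.1). No exon base of Mycn overlaps another gene and none of its 50-base words occurs elsewhere in the annotation. Of the summed FPKM of 8 MAX partners, Mycn made up 72.0% ± 0.508 in SAHH-KO and 76.5% ± 2.05 in control (SD, n = 3 each). Myc made up 12.3% ± 1.46 in SAHH-KO and 10.9% ± 0.652 in control. The Mxd1 share was 6.10% ± 1.15 in SAHH-KO and 2.02% ± 0.218 in control, without overlap between the libraries. With Mycn and the repressor Mga counted among the partners, Max was 0.273 to 0.295 of their sum in SAHH-KO and 0.185 to 0.230 in control (exact permutation p = 0.1). Mycl, another paralogue, had at most 3 reads in a library, and Mlxipl, the ChREBP partner of MLX, at most 2.

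**Figure D4:**
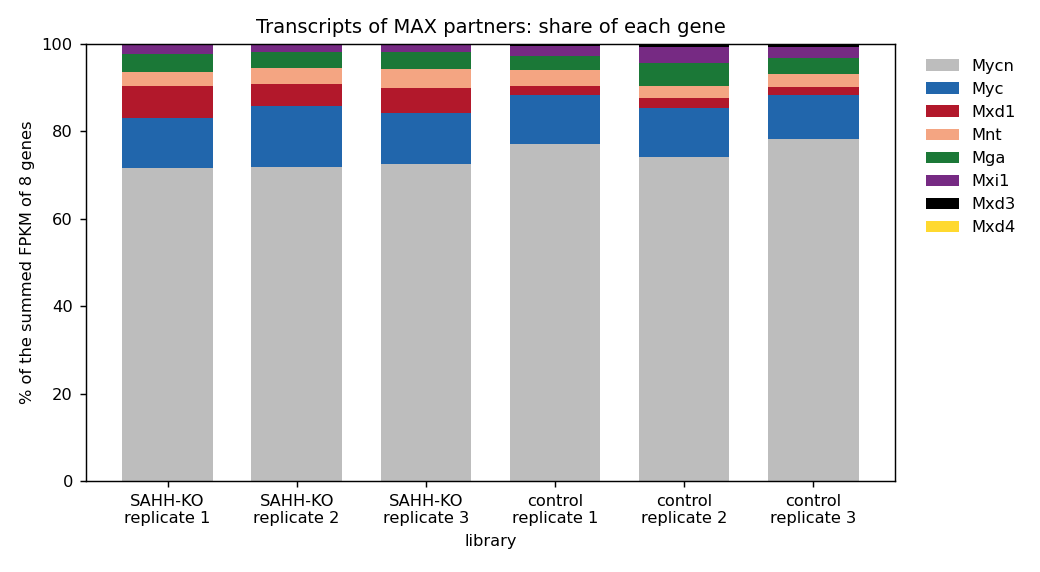
Share of each gene, in percent, in the summed FPKM of 8 genes whose proteins pair with MAX, 1 bar per library, SAHH-KO on the left and control on the right. Mycn fills 71.7% to 78.2% of each bar, and the Mxd1 layer is thicker in the SAHH-KO bars.

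Genes that MYC is known to activate were lower in SAHH-KO for 24 of 30 tested and higher for 1, where 26.8% of all genes were lower. Their median log2 fold change was -0.61, beside -0.01 over all genes. The list holds genes of ribosome production, nucleotide synthesis and metabolism, among others. Dkc1, the pseudouridine synthase of ribosomal RNA, averaged 19.3 ± 1.07 FPKM in SAHH-KO and 42.4 ± 3.13 FPKM in control (limma adjusted p = 2.16e-05). Ppat, the first enzyme of purine synthesis, fell to 7.30 ± 0.259 FPKM, against 15.4 ± 1.71 FPKM in control (adjusted p = 7.43e-05). Tfrc, the transferrin receptor, stood at 46.6 ± 6.62 FPKM in SAHH-KO and 130 ± 22.0 FPKM in control (adjusted p = 7.43e-05). Ptma, the chromatin-linked prothymosin α, was at 344 ± 37.0 FPKM in SAHH-KO and 698 ± 45.3 FPKM in control (adjusted p = 6.40e-05). The higher gene, named after its values were seen, was Shmt2, a mitochondrial serine hydroxymethyltransferase, at 169 ± 6.66 FPKM in SAHH-KO and 115 ± 8.23 FPKM in control (adjusted p = 0.000612). The count of lower genes was 23 to 26 over all alternatives.

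Genes that MYC is known to repress were higher for 5 of 7 tested and lower for 0, where 26.4% of all genes were higher, with a median of 0.54. All 7 log2 fold changes in limma were above 0, down to 0.10 for Ndrg1, so its count of lower genes was 0 at any p threshold. In limma voom lower genes also numbered 0 at an adjusted p under 0.05. Cdkn1a, the p21 inhibitor of cyclin-dependent kinases and also a target of p53, reached 169 ± 5.49 FPKM in SAHH-KO, against 43.9 ± 3.26 FPKM in control (adjusted p = 8.61e-07). Gadd45b and Gadd45a, growth-arrest genes, rose 2.07-fold and 2.01-fold (adjusted p = 7.33e-05 and 5.34e-05). Ndrg2, a differentiation-linked gene, rose 1.42-fold (adjusted p = 0.00347).

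**Figure D5:**
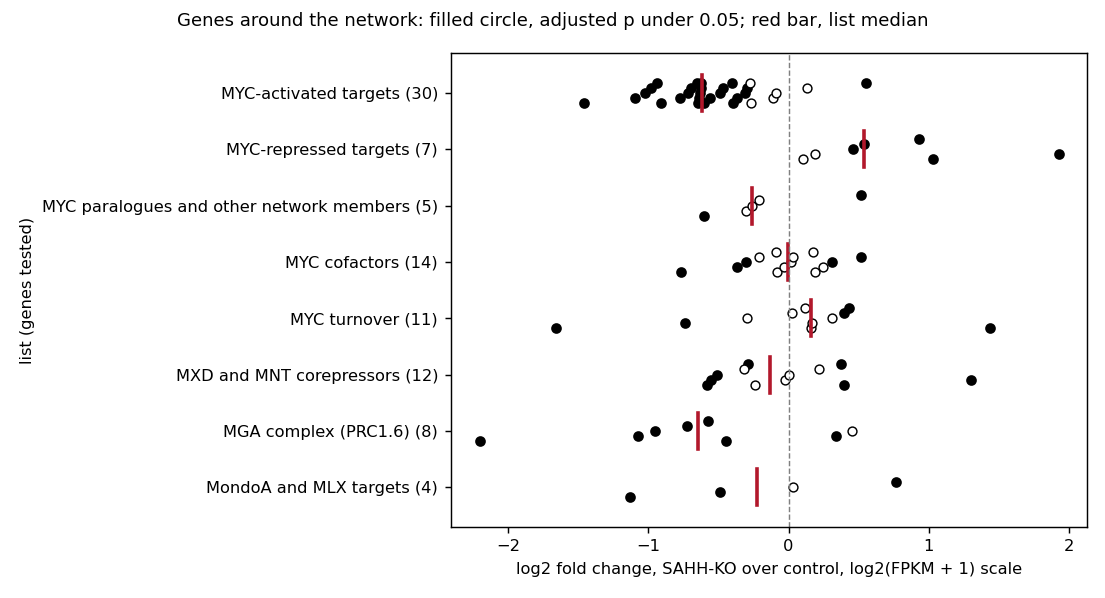
Log2 fold change of each tested gene of 8 lists around the network, SAHH-KO over control, on the log2(FPKM + 1) scale; 1 circle per gene, filled with an adjusted p under 0.05, and red bars at the list medians. MYC-activated genes lie mostly left of 0 with a median of -0.61, and MYC-repressed genes lie right of it with a median of 0.54.

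Genes whose products control the stability of MYC protein moved in both directions, 3 higher and 2 lower of 11 tested (27.3% and 18.2%, beside 26.4% and 26.8% of all genes, median 0.16). The share of higher genes was near that of all genes. Cip2a, which shields MYC by inhibiting the phosphatase PP2A, fell to 3.09 ± 0.599 FPKM in SAHH-KO, against 12.0 ± 2.68 FPKM in control (limma adjusted p = 8.39e-05). Ppp2r5a, a PP2A regulatory subunit that targets MYC, rose to 30.9 ± 2.53 FPKM, against 10.8 ± 0.520 FPKM in control (adjusted p = 5.69e-06). Skp2, an F-box protein that binds MYC, was at 0.509 of its control mean (adjusted p = 0.000942), and Trim32, a ubiquitin ligase, rose 1.35-fold (adjusted p = 0.00289). These are transcripts, and MYC protein was not measured.

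Corepressors of MXD and MNT were higher for 3 and lower for 4 of 12 (25.0% and 33.3%, beside 26.4% and 26.8% of all genes, median -0.13), shares near those of all genes. Sap30, a subunit of the SIN3 complex, reached 214 ± 14.9 FPKM in SAHH-KO, against 86.5 ± 4.58 FPKM in control (limma adjusted p = 6.98e-06). The histone-binding subunits Rbbp7 and Rbbp4 and the SIN3 subunit Sap18 were at 0.666, 0.669 and 0.682 of their control means (adjusted p = 0.000359, 0.000798 and 0.00113). MYC cofactors were higher for 2 and lower for 3 of 14 (14.3% and 21.4%, beside 26.4% and 26.8% of all genes, median -0.01), so neither share was above that of all genes. Wdr5, a chromatin scaffold, was at 0.765 of its control mean (limma adjusted p = 0.00696) and Bptf, a nucleosome remodeller, at 0.789 (adjusted p = 0.0231), while Ep400, a TIP60-complex ATPase, rose 1.47-fold (adjusted p = 0.00459). The Bptf call was lost on leaving out any SAHH-KO library or control replicate 3.

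The MGA complex, a polycomb assembly in which MGA pairs with MAX, was lower for 6 and higher for 1 of 8 tested genes (75.0% and 12.5%, beside 26.8% and 26.4% of all genes, median -0.65). Pcgf6, its defining subunit, fell to 0.653 ± 0.113 FPKM in SAHH-KO, against 6.60 ± 0.232 FPKM in control (limma adjusted p = 9.42e-07). It passed the filter on low values only through the control libraries, so its selection favoured a lower call. The SAHH-KO libraries held 26, 22 and 17 of its reads, and the control libraries 232, 235 and 239. Its deposited length is 2098 bases, where GENCODE M21 holds 5027 exon bases. Tfdp1, the E2F partner, stood at 25.2 ± 2.63 FPKM in SAHH-KO and 53.9 ± 1.91 FPKM in control (adjusted p = 3.61e-05). The chromodomain gene Cbx3 and the reader L3mbtl2 were at 0.440 and 0.549 of their control means (adjusted p = 0.000122 and 0.000721). Mga itself, named after its values were seen, was at 5.22 ± 0.158 FPKM in SAHH-KO and 6.49 ± 0.915 FPKM in control (adjusted p = 0.0596), and was called with TPM scaling (adjusted p = 0.00912), with assigned-read scaling (0.00933), in limma voom (0.0277) and without control replicate 1 (0.0450).

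Among genes of the Mondo branch and other E-box factors the calls were mixed. Of 4 tested MondoA and MLX targets, 1 was higher and 2 were lower (25% and 50%, beside 26.4% and 26.8% of all genes). Arrdc4, an arrestin of glucose uptake, fell to 5.85 ± 1.18 FPKM in SAHH-KO, against 13.9 ± 1.12 FPKM in control (limma adjusted p = 0.000192), and Pfkfb3, a glycolytic regulator, was at 0.661 of its control mean (adjusted p = 0.00430). Hk2, hexokinase, rose 1.70-fold (adjusted p = 0.00137). Txnip, the best-known MondoA target, named after its values were seen, was at 39.6 ± 2.51 FPKM in SAHH-KO and 38.8 ± 1.40 FPKM in control (adjusted p = 0.777), with a sign that turned under both scalings. Of the paralogues and other E-box factors, 1 of 5 tested was higher and 1 lower (20% each, below the shares of all genes). Usf1, an E-box activator, rose 1.49-fold (adjusted p = 0.0127), a call lost with TPM scaling and without the filter, and Tfap4, a MYC-induced factor, was at 0.530 of its control mean (adjusted p = 0.00299).

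Some of these genes share sequence or exons with others, so that their reads may be split or mixed. Itgam is the widest case after Ahcy, with 66.3% of its 50-base words and 68.7% of its exon bases shared with Gm49368 on the same strand. At least 10% of the words of Usf1 (17.2%), Ppp2r5a (11.1%), Sap18 (14.6%), Tfdp1 (16.8%), Ptma (20.4%), Lyz2 (15.4%, with Lyz1) and Mrps24 (11.8%) occur in other genes. Exons of L3mbtl2, Gadd45a, Txnip, Csf1r and Eefsec overlap a gene of the other strand over 17.2%, 19.1%, 19.4%, 15.1% and 11% of their bases, and those of Mrps24 overlap Urgcp on the same strand over 15.4%. Of the members, Mlx alone passed 10% by either measure.

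The genes whose pattern over the 6 libraries was most like that of Myc, among 9258 other protein-coding genes tested, were Mthfsd, Meis3 and D230025D16Rik (Pearson r = 0.97, 0.96 and 0.94 of log2(FPKM + 1)), and the most opposite were Stk24, Arf2 and Nubpl (r = -0.98, -0.98 and -0.97). For Max they were Hps6, Hnrnpd and Ptcd1 (r = 0.99, 0.99 and 0.98) and Arhgap21, Mrps24 and Eefsec (r = -0.98, -0.98 and -0.98). These are descriptions over 6 libraries that share 2 groups and their scaling. With TPM scaling the opposite genes kept r between -0.67 and -0.28 only.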

How the data were processed

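RNA-seq of 6 libraries was analysed, 3 per group. The authors deposited FPKM per gene. Per the submitters' processing notes, FastQC, Trim Galore, STAR and featureCounts were used with GRCm38 and mm10, and versions, settings, strand use and the FPKM formula are not given in the sources used here. FPKM times length gave whole reads within 0.01 of a read for 100% of values above 0, so depths were recovered. The authors' scaling equalled median-of-ratios size factors, and 3 reads of a 1 kb gene were worth 0.168 to 0.197 FPKM. Intervals cover the spread between libraries.

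Genes with at least 1 FPKM in 3 libraries were fitted with limma 3.58.1 in R 4.3.3 (lmFit, eBayes with a trend) on log2(FPKM + 1), group as the only term, two-sided, Benjamini-Hochberg adjusted over all 10362 genes. No set test was run. Alternatives were a pseudocount of 0.1, 2 other filters, TPM and assigned-read scaling, limma voom on recovered reads, a replicate block and leaving out each library. No pair of replicate libraries was identical, and the chi-square of their reads per degree of freedom was 3.97 to 29.1. The members and lists were chosen with earlier results of these data known. Named are the members, Ahcy, up to 4 genes per list with the smallest p past the threshold, and the 3 genes most like and most unlike Myc and Max. One gene that this rule selects is not reported here. Others are said to be named after their values were seen. Annotation came from GENCODE M21, which holds 54495 of the gene identifiers, and start windows came from RefSeq on GRCm38.p6.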

Additional observations from a re-analysis of the deposited data

How the results depend on the processing

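The calls of Mxd1 and Mxi1 held under all alternatives. Counts of members called moved with a few: without control replicate 1, 2 were higher (range 1 to 2 over left-out libraries) and 2 lower (range 1 to 2). Without the filter, with the filter at 0.1 FPKM, with TPM scaling, with assigned-read scaling and in voom with 10 reads in 3 libraries, 2 were lower. In the first, second and last of these the added gene was Mxd3, and with the scalings it was Mlx (-0.39 and -0.38). In the last, Mxd3 met the filter only in the control libraries. Leaving out libraries gave -0.18 to 0.064 for Myc (0.042 without SAHH-KO replicate 1), 0.13 to 0.27 for Max, -0.68 to -0.45 for Mxd3, -0.0062 to 0.10 for Mxd4, -0.10 to 0.25 for Mnt, -0.30 to -0.16 for Mlx and 0.12 to 0.30 for Mlxip. Mnt was -0.071 with TPM and -0.064 with assigned-read scaling. Txnip was -0.13 with both scalings and -0.021 to 0.056 over left-out libraries. The log2 ratio of Myc over Mnt ran from -0.25 to 0.023 over left-out libraries, and Max over its partners was -0.045 on reads not divided by length. Apart from the scalings, where the whole median shifts, the causes were not tested.

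Same-numbered libraries of the groups did not deviate together (r = 0.10, 0.10 and -0.01), and not every library correlated best with its own number. The replicate block called 2729 genes higher and 2761 lower and changed no call among the members. Mxd3 and Mxd4, with 6 to 42 reads per library, are limited by depth.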
